A study of Homo sapiens with 6 samples.

Results

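The genes described here are 10 regulators of entry into and exit from mitosis, CCNB1, CCNB2, CDK1, AURKA, AURKB, PLK1, CDC20, CDC25B, CDC25C and GTSE1, out of 22411 genes measured. They were chosen for their role in mitosis, with earlier results of these data known. Each was read from a probe set, a group of array probes summarised to 1 signal, that carried no other gene symbol, and each member had exactly 1 such probe set. RNA came from HCT-shSLBP, a line made from the colorectal carcinoma line HCT116 and named for a short hairpin RNA against SLBP, the protein that binds the 3' end of histone mRNAs. Gene signals were measured on Affymetrix arrays in 3 cultures left untreated and 3 cultures given doxycycline at 2 µg/ml, both of the same hairpin line. There was no doxycycline-treated culture without the hairpin, so the drug and the hairpin cannot be told apart, and the labels do not say how the line was cloned or how long the drug was present.

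Cyclin B binds the kinase CDK1 to form the complex that drives a cell from G2 into mitosis. The kinases WEE1 and PKMYT1 hold the complex off by phosphorylating CDK1, and the CDC25 phosphatases remove that block, helped by PLK1 and by the Aurora kinases. Exit follows when CDC20 activates the anaphase-promoting complex, a ubiquitin ligase that marks cyclin B for destruction. The mRNAs of these genes rise towards G2 and mitosis in cycling cells. This rise is driven through promoters that hold CCAAT boxes, bound by NF-Y, and often a cell cycle genes homology region (CHR), bound by the MuvB complex with its partners MYBL2 and FOXM1.

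Promoter sequence is shown first because these genes are known for sharing promoter elements. RefSeq promoter entries on GRCh38.p14 were found for 9 of the 10 genes (AURKA had none), each covering 250 bases before and 50 bases after an annotated start. Both strands were searched for CCAAT and for the CHR letters TTTGAA, and for the rarer form TTCGAA. The 150 bases before the start are printed for 3 genes that fell on the arrays (CCNB1, PLK1, GTSE1), for the cyclin paralog CCNB2, for CDC20 and for CDC25B, the gene whose signal did not go down. For CDC25B, which has several annotated starts, the start whose window held both kinds of element is shown. Capitals mark a CCAAT box or a CHR on either strand, and all 6 genes lie on the plus strand.
CCNB1, chr5:69167000-69167149: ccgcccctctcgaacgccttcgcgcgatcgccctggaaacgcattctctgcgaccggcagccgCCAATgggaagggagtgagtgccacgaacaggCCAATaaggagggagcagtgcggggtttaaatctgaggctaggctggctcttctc
CCNB2, chr15:59104996-59105145: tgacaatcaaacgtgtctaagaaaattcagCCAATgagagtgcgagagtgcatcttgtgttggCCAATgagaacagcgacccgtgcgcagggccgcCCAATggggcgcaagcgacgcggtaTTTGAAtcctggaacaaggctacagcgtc
PLK1, chr16:23678739-23678888: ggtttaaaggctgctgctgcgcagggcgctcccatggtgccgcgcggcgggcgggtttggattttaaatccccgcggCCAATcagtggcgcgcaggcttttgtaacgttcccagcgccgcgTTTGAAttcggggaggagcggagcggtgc
GTSE1, chr22:46296720-46296869: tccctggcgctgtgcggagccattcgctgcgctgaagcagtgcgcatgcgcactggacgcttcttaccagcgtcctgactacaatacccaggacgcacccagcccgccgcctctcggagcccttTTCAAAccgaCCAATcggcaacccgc
CDC20, chr1:43358831-43358980: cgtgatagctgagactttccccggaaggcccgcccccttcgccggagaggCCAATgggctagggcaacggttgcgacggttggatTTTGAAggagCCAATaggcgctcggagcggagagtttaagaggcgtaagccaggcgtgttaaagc
CDC25B, chr20:3796160-3796309: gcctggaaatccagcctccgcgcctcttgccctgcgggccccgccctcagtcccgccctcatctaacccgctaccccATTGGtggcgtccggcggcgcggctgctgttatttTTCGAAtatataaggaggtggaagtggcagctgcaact

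A CCAAT box was present in at least 1 window of all 9 genes with an entry, and 39.7% of 27305 genes in the table had it. TTTGAA was present in 6 of the 9 (CCNB2, CDK1, PLK1, CDC20, CDC25C and GTSE1), against 18.2% of genes in the table. TTCGAA was found in CDC25B only among the 9, against 1.82% of genes in the table. The CHR of CCNB2 and that of PLK1 each began 29 bases before the annotated start, and that of GTSE1, on the other strand, began 26 bases before it. In CCNB1 the CCAAT boxes began 87 and 55 bases before the start, 32 bases apart, and neither TTTGAA nor TTCGAA was found in the window. No other form of the CHR was searched for, so its absence from CCNB1 is not shown. In CCNB2 boxes began at 120, 87 and 54 bases, 33 bases apart each time, and a further box at 244 lay 124 bases from the next. The boxes of CDK1 at 78 and 46 bases were also 32 apart. Other genes differed: the boxes of CDC20 at 100 and 55 bases were 45 apart. Those of CDC25C at 217, 200 and 12 bases were 17 and 188 apart. How common such spacings are among all genes was not computed. CCNB1, which fell, and CCNB2, which did not pass the test, both carried CCAAT boxes 32 or 33 bases apart. These are matches of letters and not measured binding, and genes with several annotated starts had more sequence to match.

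SLBP, the hairpin's target, fell by 0.77 on the log2 scale in treated cells (SE 0.0553, limma adjusted p = 0.00322), which left 58.6% of its untreated signal. Its exact two-sided permutation test reached p = 0.1, which is the lowest value open to 3 arrays per group. The medians of the 6 arrays lay between log2 4.12 and 4.17. Of 12 epithelial and colon markers, 5 lay above the median signal of all genes, log2 5.58, and these were EPCAM, CDH1, KRT8, KRT18 and KRT19. KRT20, CDX1, CDX2, VIL1, LGALS4, CEACAM5 and CDH17, markers of intestinal differentiation, lay under it. None of 8 blood and endothelial markers and 2 of 9 fibroblast markers (COL1A1 and ACTA2) lay above it, and no marker of the 3 lists passed the test.

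Among the 10 mitotic genes, CCNB1, AURKA, GTSE1 and PLK1 fell in doxycycline-treated cells and none rose. The falls left between 76.8% and 81.7% of the untreated signal. "Fell" and "rose" refer to a limma adjusted p under 0.05 over all 22411 genes. The count of 4 in 10 stands beside 3.27% of all genes that fell and 2.93% that rose. All 10 genes lay above the median signal of all genes, and among the 6038 genes at least as bright as the dimmest of the 10, 7.68% fell. Most fits with 1 array left out called fewer of the 10. Without untreated replicate 1, 3 were called. Without untreated replicate 2 or 3, or treated replicate 2 or 3, 2 were called (CCNB1 and AURKA). All 4 were called without treated replicate 1. These fits have fewer samples, and the calls over all genes also dropped, from 1388 to between 132 and 1098. The median log2 change of the 10 was -0.192, against -0.019 over all genes. Treated cultures lay wholly below untreated cultures in 9 of the 10, as they did in 16.7% of all genes. In bulk RNA, fewer cells in G2 and mitosis and less of each mRNA per cell cannot be told apart.

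**Figure D1:**
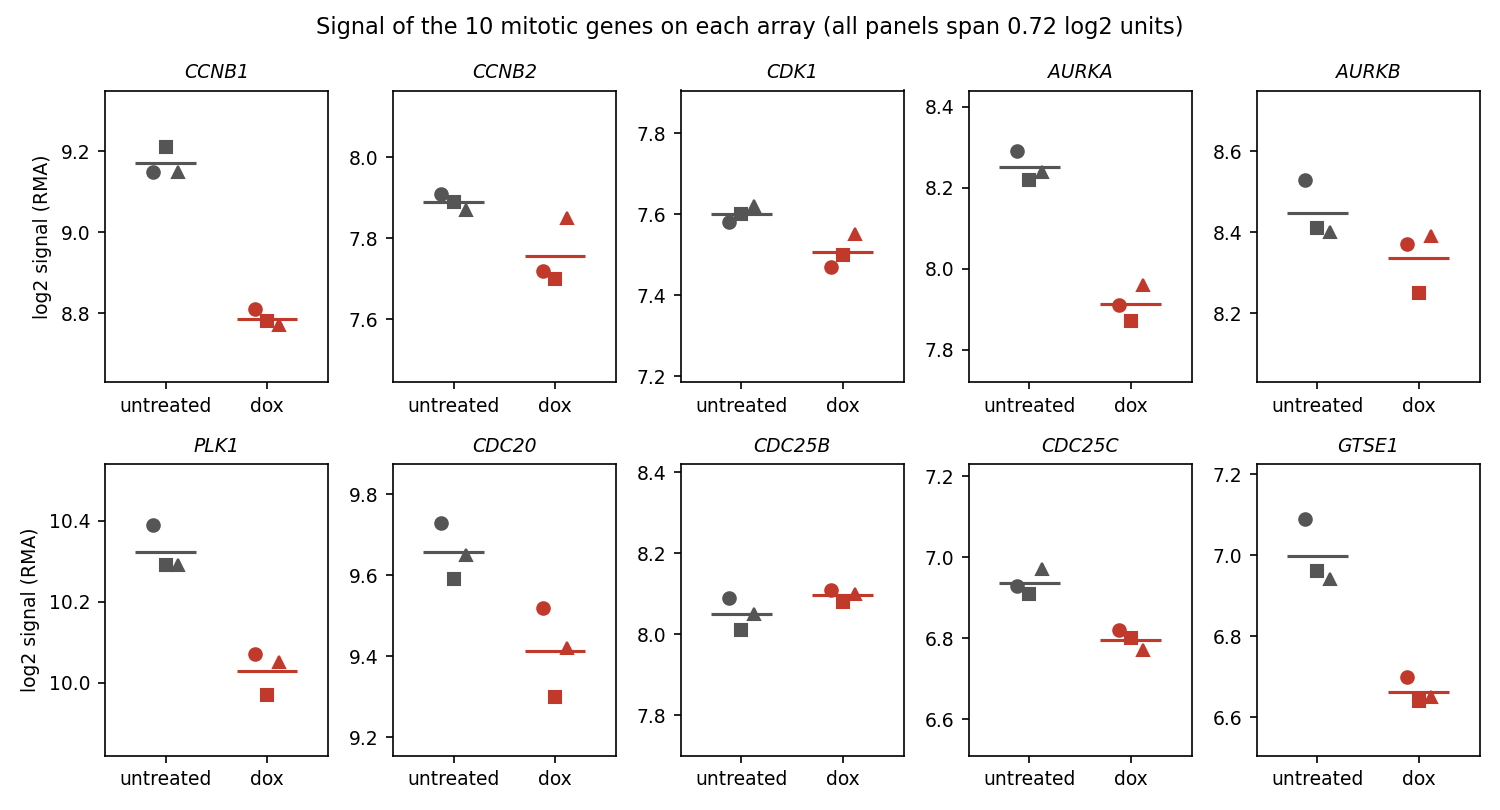
Log2 RMA signal (y axis) of each of the 10 genes in untreated (grey) and doxycycline-treated (red) cultures. Each point is 1 array (circle, square and triangle for replicates 1, 2 and 3, which are separate cultures) and the line is the group mean of 3; the treated points lie below all untreated points in every gene except CDC25B.

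The cyclins and their kinase come first. CCNB1 encodes cyclin B1, the main mitotic partner of CDK1. Its log2 signal was 9.15, 9.21 and 9.15 in untreated cultures and 8.81, 8.78 and 8.77 in treated ones. The groups were separated by 0.337, about as much as the change itself, because replicates of both groups lay close together (SD 0.0331 and 0.0199, n = 3 each). This is a log2 change of -0.38 (SE 0.037) with a limma adjusted p of 0.00647, the lowest p of the 10 and rank 57 of all genes. Dropping any 1 array kept the adjusted p at or below 0.043.

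CCNB2 encodes cyclin B2, which is found mainly at the Golgi apparatus. Its signal was 7.91, 7.89 and 7.87 untreated and 7.72, 7.70 and 7.85 treated. Treated replicate 3 lay just under the lowest untreated culture, and the other treated cultures lay further down. The log2 change was -0.13 (95% interval -0.25 to -0.02, limma adjusted p = 0.158) and did not pass. CDK1, the catalytic subunit shared by both cyclins, measured 7.58, 7.60 and 7.62 untreated and 7.47, 7.50 and 7.55 treated. Its groups did not overlap, but the log2 change was -0.10 (95% interval -0.19 to -0.01, limma adjusted p = 0.188) and did not pass.

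AURKA and PLK1 are the kinases that act early in mitosis. AURKA, which matures centrosomes and activates PLK1, measured 8.29, 8.22 and 8.24 untreated and 7.91, 7.87 and 7.96 treated. Every treated culture was below every untreated one by at least 0.266, giving a log2 change of -0.34 (SE 0.0414) and a limma adjusted p of 0.0101. The adjusted p stayed at or below 0.0489 when any 1 array was dropped, and was 0.0554 when every probe set was tested. PLK1, which promotes mitotic entry and spindle assembly, measured 10.39, 10.29 and 10.29 untreated and 10.07, 9.97 and 10.05 treated. Untreated replicate 1 was the highest array and treated replicate 2 the lowest, and the groups were 0.213 apart. PLK1 fell by 0.29 on the log2 scale (SE 0.0477), with a limma adjusted p of 0.0201. This call was lost without untreated replicate 1 (adjusted p = 0.0718), 2 (0.0555) or 3 (0.0672) and without treated replicate 2 (0.056) or 3 (0.0752), while the log2 change stayed between -0.26 and -0.31 in these fits. It was also lost when every probe set was tested (adjusted p = 0.0865).

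AURKB is the kinase of the chromosomal passenger complex, which corrects attachments of chromosomes to the spindle. Its signal was 8.53, 8.41 and 8.40 untreated and 8.37, 8.25 and 8.39 treated. Treated replicate 3 lay only 0.01 below untreated replicate 3, so the groups barely separated. The log2 change was -0.11 (95% interval -0.24 to 0.02, limma adjusted p = 0.312), which did not pass. The point values of the falls of CCNB1, AURKA, GTSE1 and PLK1 all lie outside this interval. The 95% intervals of GTSE1 (-0.45 to -0.21) and PLK1 (-0.40 to -0.18) overlap it, and that of AURKA (-0.44 to -0.24) meets its edge. Whether AURKB changed less than GTSE1 or PLK1 was not tested.

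GTSE1 is a microtubule-associated protein of G2 and mitosis that stabilises microtubules. It measured 7.09, 6.96 and 6.94 untreated and 6.70, 6.64 and 6.65 treated. Untreated replicate 1 stood above the other untreated cultures, and the treated cultures lay together 0.238 below the lowest of them. GTSE1 fell by 0.33 on the log2 scale (SE 0.0507), with a limma adjusted p of 0.0173. The call was lost without untreated replicate 2 (adjusted p = 0.0501) or 3 (0.0534), without treated replicate 2 (0.056) or 3 (0.0745), and when every probe set was tested (0.077).

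CDC20, the activator of the anaphase-promoting complex, measured 9.73, 9.59 and 9.65 untreated and 9.52, 9.30 and 9.42 treated. The groups did not overlap, and the SD was 0.073 untreated and 0.109 treated, the latter the largest of the 10 genes in treated cultures. The log2 change was -0.24 (95% interval -0.40 to -0.09) and the limma adjusted p of 0.0766 missed the threshold. CDC20 passed in 4 of 9 alternative fits, those with background subtraction (adjusted p = 0.047), without dim genes (0.0212), with trend and robust settings (0.0465) and with array weights (0.0233). It passed in none of the 6 fits with 1 array left out (limma adjusted p up to 0.214).

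The CDC25 phosphatases did not move alike in their means. CDC25C, which activates CDK1 at mitotic entry, measured 6.93, 6.91 and 6.97 untreated and 6.82, 6.80 and 6.77 treated. The groups were 0.094 apart, and the log2 change of -0.14 (95% interval -0.23 to -0.05, limma adjusted p = 0.0722) missed the threshold. It passed in the same 4 alternative fits as CDC20, with adjusted p between 0.0189 and 0.0398. Like CDC20, it passed in none of the 6 fits with 1 array left out (limma adjusted p up to 0.222). CDC25B, which starts CDK1 activation at centrosomes, measured 8.09, 8.01 and 8.05 untreated and 8.11, 8.08 and 8.10 treated. It was the only member with a higher mean in treated cells, with overlapping groups and a log2 change of 0.05 (95% interval -0.05 to 0.14, limma adjusted p = 0.549). A fall as large as those of CCNB1, AURKA, GTSE1 and PLK1 lies outside that interval.

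**Figure D2:**
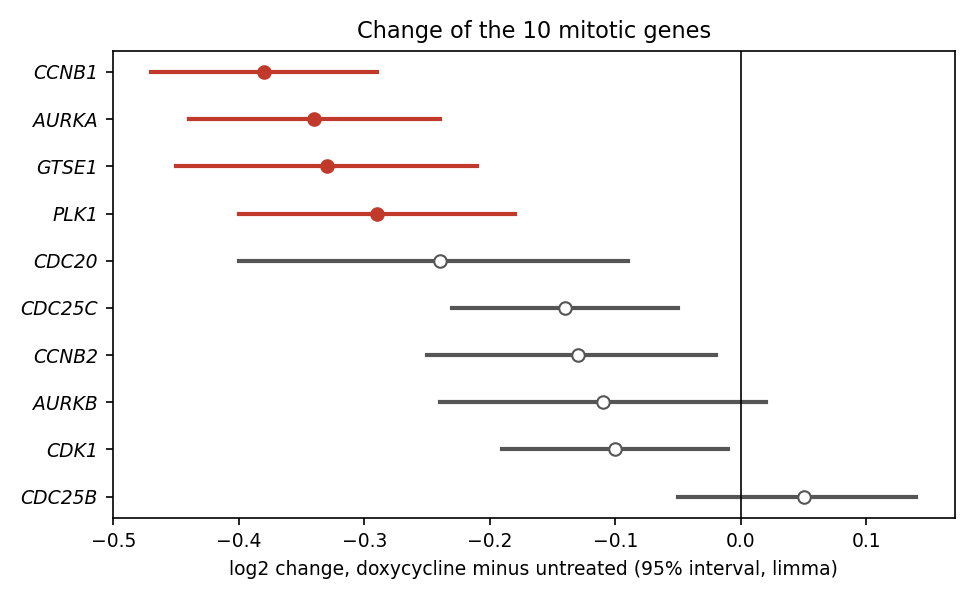
Log2 change between treated and untreated cultures (x axis) for each of the 10 genes, with the 95% interval from limma as a bar (n = 3 arrays per group). Filled red points are genes with adjusted p under 0.05, CCNB1 (-0.38), AURKA (-0.34), GTSE1 (-0.33) and PLK1 (-0.29); open points did not pass, and CDC25B (0.05) is the single point above 0.

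The members include 3 pairs of related genes, and in each the difference between the pair was compared on the same arrays. The offset between probe sets has no meaning of its own, so only its shift with treatment is read. Whether both probe sets of a pair respond equally to a change in mRNA was not tested. CCNB1 minus CCNB2 was 1.24, 1.32 and 1.28 in log2 units untreated and 1.09, 1.08 and 0.92 treated. This is a shift of -0.25, towards a larger drop in the CCNB1 signal. AURKA minus AURKB was -0.23, -0.19 and -0.16 untreated and -0.46, -0.38 and -0.43 treated, a shift of -0.23 towards a larger drop in the AURKA signal. CDC25B minus CDC25C was 1.17, 1.09 and 1.08 untreated and 1.29, 1.28 and 1.34 treated, a shift of 0.19. The groups did not overlap in any of the 3 pairs. Of the 22411 single genes, 3753 had treated cultures wholly below untreated ones and 2794 wholly above. The share among other gene pairs was not computed. Each exact two-sided permutation test gave p = 0.1, the smallest possible with 3 arrays per group, and p = 0.1 after Benjamini-Hochberg adjustment over the 3 pairs. This p restates the lack of overlap and adds nothing to it. The design cannot bring such a test under 0.05.

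**Figure D3:**
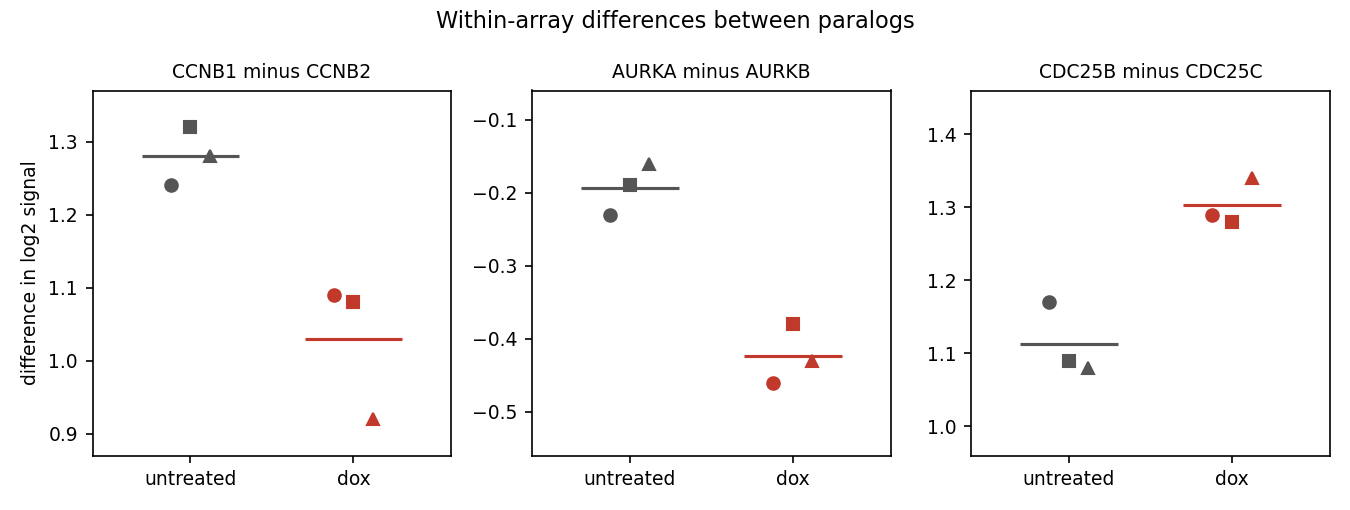
Difference in log2 signal between related genes on the same array (y axis) in untreated (grey) and doxycycline-treated (red) cultures, with 1 point per array and the mean of 3 as a line. The groups are separate in each panel, with shifts of -0.25 for CCNB1 minus CCNB2, -0.23 for AURKA minus AURKB and 0.19 for CDC25B minus CDC25C.

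The regulators around the 10 genes were read from 4 lists with 82 measured genes, of which 16 fell and 4 rose. The counts in these lists stand beside 3.27% of all genes that fell and 2.93% that rose. Among genes at least as bright as the dimmest of the 10, 7.68% fell. Their median log2 change was -0.087, against -0.019 over all genes. As for the members and for all genes, most fits with 1 array left out called fewer. In place of 20 genes, 6 were called without untreated replicate 1, 5 without replicate 2 and 2 without replicate 3. There were 17 called without treated replicate 1, 11 without treated replicate 2 and 1 without treated replicate 3. TRIP13 was the only 1 of the 20 that passed with every array left out in turn. Nearest to the cyclin B switch, 3 of 20 regulators of CDK1 fell, none rose, and the list's median was -0.033. CDC25A, the phosphatase that acts from G1 onwards, fell most in this list, from 7.07, 6.94 and 6.86 to 6.53, 6.42 and 6.46, or by 0.48 on the log2 scale (SE 0.0613) with a limma adjusted p of 0.0103. Together with CDC25B and CDC25C, it completes the CDC25 family. MASTL, the Greatwall kinase that shuts off the phosphatase opposing CDK1 in mitosis, fell by 0.26 on the log2 scale (limma adjusted p = 0.0405). PPP2R2D, a regulatory subunit of that phosphatase, fell by 0.18 (limma adjusted p = 0.031). CDC25A lost its call without treated replicate 3 (adjusted p = 0.0524), PPP2R2D whichever array was left out (up to 0.12), and MASTL in all such fits except that without treated replicate 2 (up to 0.129) and also after median centring or repeated quantile normalization.

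Of 21 measured partners of Aurora kinases and PLK1, 3 fell and 3 rose, and the list's median was -0.091. The falls were in CDCA8 (-0.33, adjusted p = 0.0191) and BIRC5 (-0.27, adjusted p = 0.0158), subunits of the passenger complex that holds AURKB, and in PRC1 (-0.29, adjusted p = 0.0103), which bundles microtubules of the central spindle and is bound by PLK1. These log2 changes and those below were tested with limma over all genes. The rises were in PLK2 and PLK3, stress-responsive paralogs of PLK1, and in KIZ, a centrosomal substrate of PLK1. PLK2 went from 8.0, 8.04 and 7.99 to 8.35, 8.56 and 8.48 (log2 change 0.46, SE 0.0575, adjusted p = 0.0103). PLK3 went from 7.71, 7.61 and 7.61 to 7.92, 7.92 and 7.98 (0.30, SE 0.0439, adjusted p = 0.0152). PLK1 thus fell in the same cultures in which PLK2 and PLK3 rose. KIZ rose by 0.32 (adjusted p = 0.0486) from a mean of 5.14, under the median signal of all genes, and lost the call after median centring or repeated quantile normalization. Each of these 6 genes lost its call without untreated replicate 3 and also without treated replicate 3. The highest adjusted p with 1 array left out were 0.0524 for PRC1, 0.0525 for PLK2, 0.0699 for PLK3, 0.0678 for BIRC5, 0.0773 for CDCA8 and 0.153 for KIZ.

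In the anaphase-promoting complex and the spindle checkpoint, the machinery on which CDC20 acts, 5 of 25 measured genes fell and none rose, with a median of -0.089. TRIP13, an ATPase that disassembles the checkpoint complex, fell from 7.68, 7.62 and 7.62 to 7.30 in all 3 treated cultures (-0.34, SE 0.0372, adjusted p = 0.00799). MAD2L1, the checkpoint protein that binds CDC20, fell by 0.21 (adjusted p = 0.0279), and ESPL1, the protease separase, fell by 0.27 (adjusted p = 0.0302). The ligase subunits ANAPC15 (-0.30, adjusted p = 0.027) and ANAPC7 (-0.18, adjusted p = 0.048) were the other falls. With 1 array left out, TRIP13 stayed at or below an adjusted p of 0.0489. MAD2L1 (up to 0.108) and ESPL1 (up to 0.111) kept their calls only without treated replicate 1, ANAPC15 (up to 0.092) and ANAPC7 (up to 0.158) in no such fit, and ANAPC7 also lost it under both rescalings. Means were lower in 23 of the 25 genes, as they were in 58.2% of all genes.

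Among 16 measured genes for transcription factors of G2 and mitosis, 5 fell and 1 rose, with a median of -0.074. MYBL2, which joins the MuvB complex, went from 9.53, 9.39 and 9.36 to 9.07, 8.84 and 8.94 (-0.48, SE 0.0704, adjusted p = 0.0155). FOXM1, which acts at the same promoters later, went from 8.66, 8.60 and 8.61 to 8.42, 8.24 and 8.33 (-0.30, SE 0.0536, adjusted p = 0.0257). LIN9, a core MuvB subunit, fell by 0.23 (adjusted p = 0.0217), and TFDP1, the dimer partner of E2F factors, fell by 0.31 (adjusted p = 0.0269). The pocket proteins, which repress cell cycle genes with MuvB, went in opposite directions. RBL1 (p107) fell by 0.30 (adjusted p = 0.0301) and RBL2 (p130) rose by 0.24 (adjusted p = 0.0324). Each of the 6 lost its call without untreated replicate 3 and also without treated replicate 3, and the highest adjusted p with 1 array left out lay between 0.0667 for MYBL2 and 0.118 for RBL2.

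**Figure D4:**
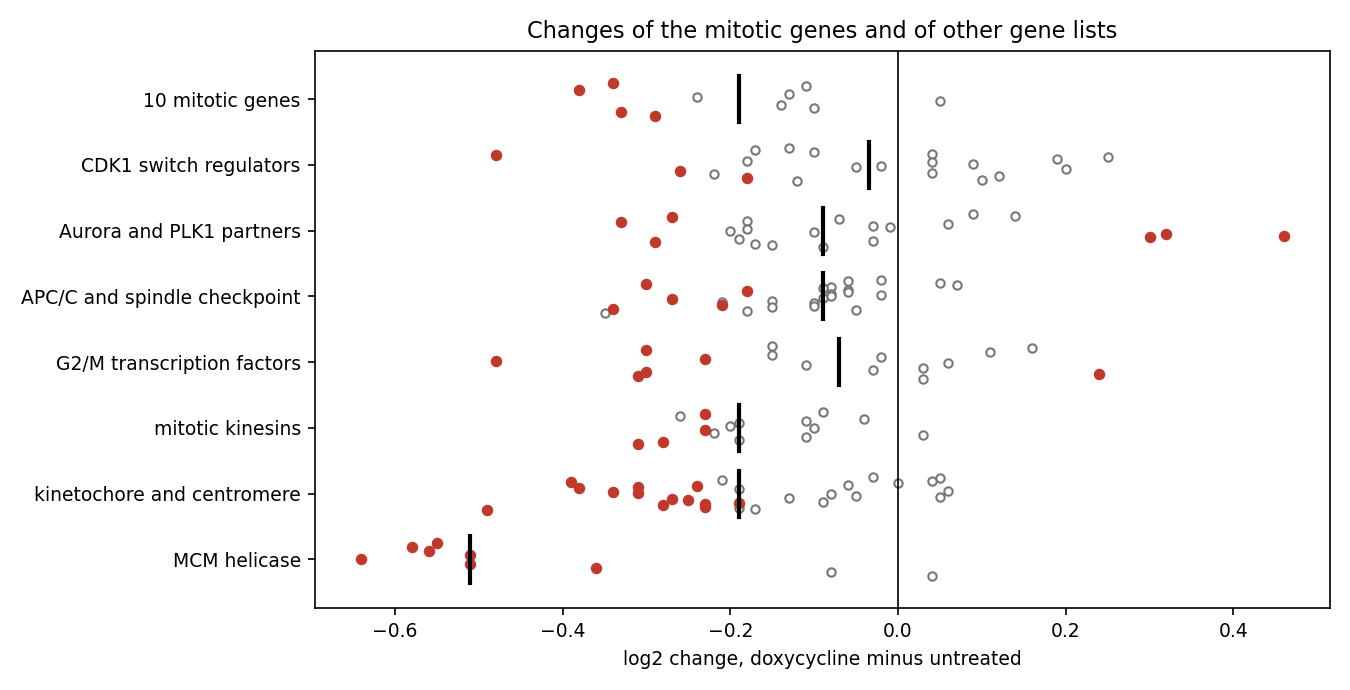
Log2 change between treated and untreated cultures (x axis) of each gene of the 10 mitotic genes and of 7 other lists, with 1 point per gene and the list's median as a black bar. Filled red points have a limma adjusted p under 0.05 and open points do not; the median was -0.192 for the 10 genes, -0.191 for mitotic kinesins, -0.193 for kinetochore and centromere genes and -0.512 for MCM genes.

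For scale, 3 lists of related processes were set beside the 10 genes. Of 15 mitotic kinesins 4 fell, with a median log2 change of -0.191, and of 28 kinetochore and centromere genes 13 fell, with a median of -0.193. Of 9 genes named MCM, among them MCM2 to MCM7 of the replicative helicase, 7 fell, and the median of the 9 was -0.512. None of the 3 lists had a gene that rose. Over all genes, 3.27% fell and 2.93% rose, and 7.68% fell among genes at least as bright as the dimmest of the 10. Differences between lists were not tested.

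The genes outside the members whose course over the 6 arrays was closest to the mean course of the 10 were DDX24, EIF4EBP2, PLPP2, EIF4A3 and PHB2. Closeness was the root mean square difference, over the 6 arrays, between a gene's deviations from its own mean and the mean deviations of the 10 members. It was between 0.0135 and 0.0145 log2 units for these 5 genes, with a median of 0.106 over the 6028 genes compared. The members themselves were further from their own mean course, from 0.0489 for PLK1 and CDC25C to 0.0977 for CCNB1 and 0.124 for CDC25B. The 5 genes were picked as the closest of 6028 and the members were not, so this contrast follows from the choice. The log2 changes of the 5 lay between -0.23 and -0.18, near the median of the members. Whether they share regulation with the members was not tested.

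**Figure D5:**
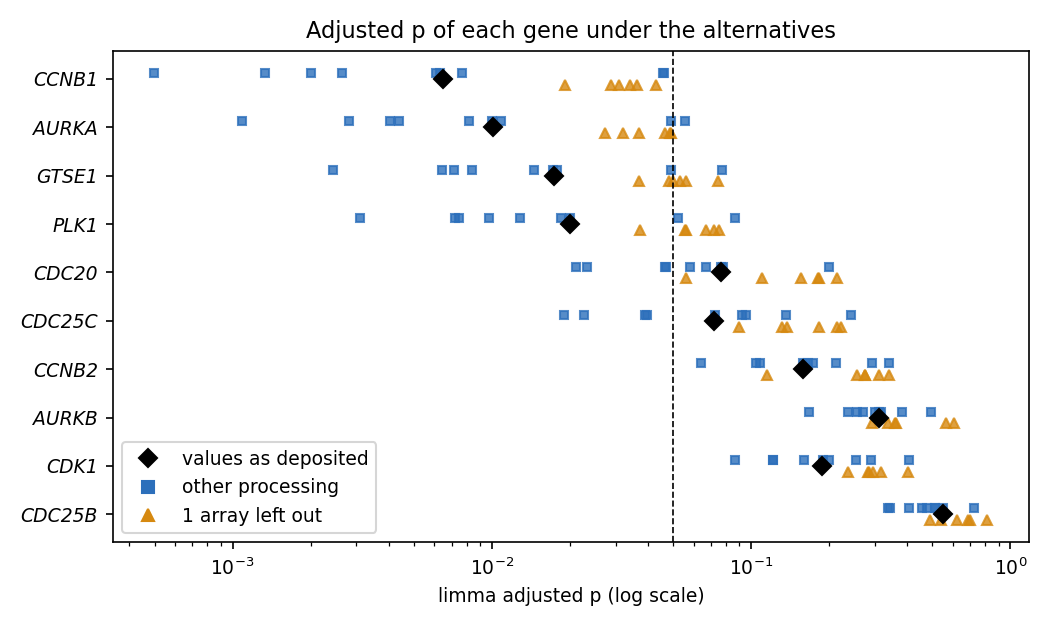
Limma adjusted p (x axis, log scale) of each of the 10 genes with the values as deposited (black diamond), under 9 other ways of processing or fitting (blue squares) and with 1 array left out (orange triangles); the dashed line is 0.05. CCNB1 stays left of the line throughout, and CCNB2, AURKB, CDK1 and CDC25B stay right of it throughout.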

How the data were processed

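The authors deposited 1 log2 signal per probe set and array. It was computed with RMA according to the submitters' processing notes, and that the scale is log2 was read from the range of 0.485 to 14.175. Software version and annotation are not given in the sources used here. Of 70523 probe sets, 23781 carried 1 gene symbol in the platform's annotation, and 306 symbols were updated through RefSeq, which gave 22411 genes. For genes with several probe sets the one with the highest mean was kept. A linear model with treatment as its single term was fitted to every gene with lmFit and moderated with eBayes (limma 3.58.1, R 4.3.3), and p-values were adjusted over all genes after Benjamini and Hochberg. The fitting code was run on simulated data with independent normal noise. That run checked the code and does not bear on the calls reported here. The number of arrays limits the precision. Related genes were compared with exact permutation tests (scipy 1.17.1).

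The 10 members, the gene lists and the tests were chosen with earlier results of these data known. Named genes are all members, SLBP, from each of the 4 pathway lists the 3 genes with the smallest adjusted p and up to 3 more past the threshold with the largest change, and the 5 genes closest to the members' mean course. Some genes of the pathway lists are not analysed here. Other settings were quantile normalization applied again, centring on each array's median, a background of the 5th percentile subtracted with a floor of 16, omission of genes dimmer than the median, weights per array, trend and robust options of eBayes, averaging of a gene's probe sets, a fit of all probe sets, replicate number as a block, and omission of each array.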

Additional observations from a re-analysis of the deposited data

How the results depend on the processing

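The number of the 10 genes called was 4 with the values as deposited, 3 with the replicate number as a block (a replicate block, in which PLK1 was lost with adjusted p = 0.0521), 1 (CCNB1) when every probe set was tested, 6 with array weights, trend and robust options, background subtraction or dim genes omitted, and between 2 and 4 when 1 array was left out. The deviations showed no sign that replicate numbers pair the cultures (correlation over genes of 0.03, -0.001 and -0.016 for same-numbered cultures). Differently numbered cultures gave between -0.1 and 0.104. The sample titles state no pairing, so whether the cultures were paired is not known. Of all genes, 1388 were called, against 2162 after background subtraction, 2569 with dim genes omitted, 3225 with array weights, 344 of 70523 when every probe set was tested, 331 with the replicate block and 132 to 1098 with 1 array left out. Of the other mitotic regulators, 20 were called, against 32, 38, 39, 1 and 5 under these settings in the same order and 1 to 17 with 1 array left out. The tests of every probe set adjust over more features, and the fits with 5 arrays have fewer samples; for the other settings the cause was not tested. No change of SLBP or of the 10 genes turned its direction under these alternatives, nor did the 3 differences between related genes under those run for them. CCNB2, AURKB, CDK1 and CDC25B were called in none.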

Other observations

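On untreated replicate 1, 7 of the 10 genes lay above the untreated mean, with a median deviation of 0.042 log2 units, where the median over all genes was 0.004. On treated replicate 2, 1 of the 10 lay above the treated mean, with a median deviation of -0.033, where the median over all genes was -0.017. On treated replicates 1 and 3, 7 of the 10 lay above it. Deviations within a group of 3 sum to 0, so these counts are not independent of each other.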
